A study of Rattus norvegicus with 12 samples.

Results

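A group of 126 genes, out of 32622 in the deposited table of counts, were higher at day 3 than at day 0 of adipogenic induction in cells from control, 7-day and 14-day hindlimb-suspended rats, at day 3 levels within 2-fold of control. The genes were selected on measured values: a gene was taken when its mean CPM (the count per 1000000 counts of its library) at day 3, plus 0.5, was at least 3 times that at day 0, plus 0.5, in each treatment. Its mean also had to be at least 5 CPM at day 3 in each treatment, and its day 3 level after 7 and after 14 days, again with 0.5 added, had to lie between 0.5 and 2 times that of control cells. The rule left out 5 identifiers. The induction and the day 3 ratios to control therefore chose the genes, and they are described below without a test. The rule set no direct condition on differences between treatments at day 0, which were tested, although the day 0 means entered its ratios.

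RNA with poly(A) tails was sequenced from primary cultures of fibro-adipogenic progenitors of the rat soleus, with reads of 51 bp. The 6 groups held 2 libraries each: cells of control rats, of rats suspended for 7 days and of rats suspended for 14 days (control, 7-day and 14-day cells), each at day 3 of induction and at day 0, before the medium was changed. The labels name no strain, sex, age or transgene and do not say whether replicates came from separate animals or cultures, so the p-values reflect library-to-library spread alone, and that spread may be technical. The libraries analysed here hold no day 3 cells in plain medium, so the effect of the induction medium and that of added time in culture cannot be told apart.

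Fibro-adipogenic progenitors are mesenchymal cells that lie between muscle fibres and can form fat cells or matrix-producing fibroblasts. Hindlimb suspension takes the weight off the hind legs and leads to wasting of the soleus, a postural muscle. The induction medium contained insulin and dexamethasone at 1 μM each, plus 0.5 μM of the phosphodiesterase inhibitor IBMX. As background, insulin acts through the insulin and IGF receptors, dexamethasone activates the glucocorticoid receptor, and IBMX slows the breakdown of cyclic AMP. Together such agents start the fat cell programme through C/EBP factors and then PPARγ. The table lists Ensembl rat identifiers without names, and 0 of them matched the RefSeq gene table used here (GRCr8), so the 126 genes are described by their levels and not by function. For the same reason the labelled cell type was not checked against its markers. In bulk RNA, more cells expressing a gene and more RNA of it per cell cannot be told apart.

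Together the 126 genes took a larger share of the counts at day 3 than at day 0 in every library of each treatment. In control cells they took 2.71% and 2.72% of all counts in the day 3 libraries, against 0.425% and 0.431% in the day 0 libraries. In 7-day cells they took 3.07% and 3.05% at day 3, against 0.393% and 0.395% at day 0, and in 14-day cells 3.01% and 3.03%, against 0.356% in each library at day 0. At day 0 the share was thus lowest in 14-day cells, at 0.356% ± 0.000258, against 0.428% ± 0.00405 in control cells (SD, n = 2 each), and the libraries of these groups did not overlap. An exact permutation test of 2 against 2 libraries cannot give a two-sided p under 0.333, and the share was not tested otherwise. Without the most abundant gene the other 125 took 2.31% ± 0.00821 of the counts at day 3 in control cells, 2.36% ± 0.0180 in 7-day cells and 2.46% ± 0.00364 in 14-day cells.

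**Figure D1:**
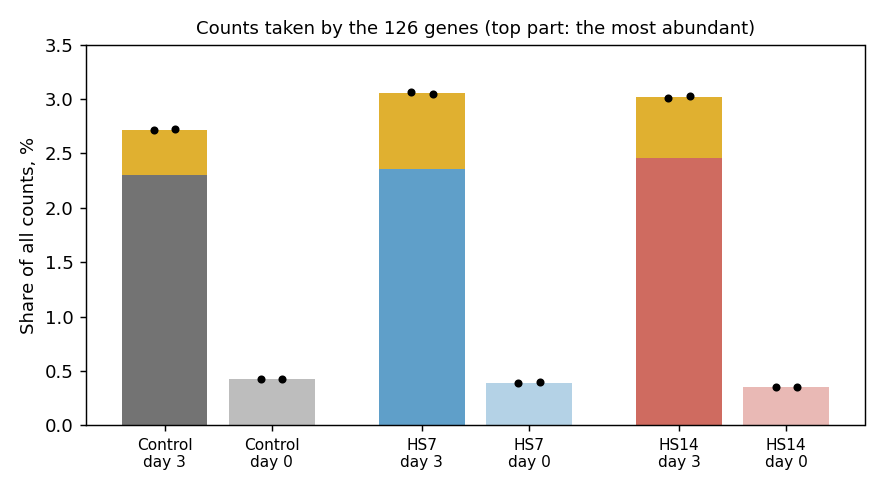
Share of all counts taken by the 126 genes, in percent, as the mean of 2 libraries per group, with each library as a point; the yellow top part is the most abundant gene. The day 3 bars stand at 2.72%, 3.06% and 3.02% for control, 7-day and 14-day cells, and the day 0 bars at 0.428%, 0.394% and 0.356%.

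The middle gene of the group was a moderately expressed transcript. Its level at day 3 was a median of 62.3 CPM in control cells, 66.3 CPM in 7-day cells and 60.9 CPM in 14-day cells, and at day 0 it was 10.3, 10.8 and 9.07 CPM in these cells. At least 100 CPM was reached at day 3 by 46 genes in control cells, 49 in 7-day cells and 44 in 14-day cells, and at least 1000 CPM by 6, 4 and 5. At day 0, 15 genes in control cells, 9 in 7-day cells and 14 in 14-day cells were under 1 CPM. Replicates lay close together: the median coefficient of variation between the 2 libraries of a group was 2.85% to 4.65% at day 3 and 7.31% to 8.69% at day 0.

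**Figure D2:**
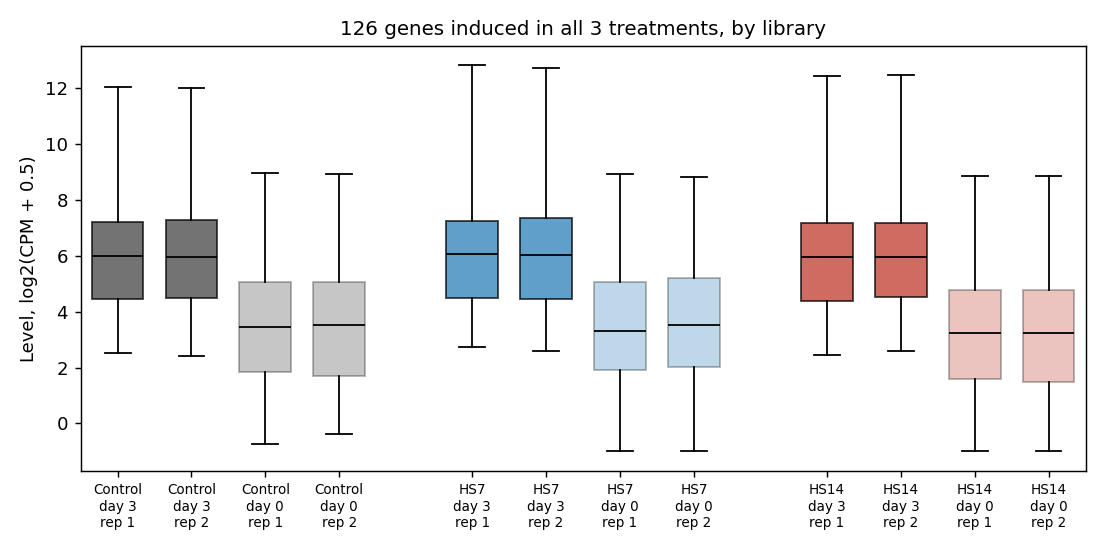
Levels of the 126 genes in each of the 12 libraries, as log2(CPM + 0.5); boxes span the quartiles with the median as a line, and whiskers reach the lowest and highest gene. The boxes of the 2 replicates of a group lie at almost the same height, and the day 3 boxes lie above the day 0 boxes in all 3 treatments.

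Most of the rises were of moderate size, with a small number of very strong ones. The median ratio of day 3 to day 0 was 5.11-fold in control cells, 5.10-fold in 7-day cells and 6.13-fold in 14-day cells. A rise of 3-fold to under 5-fold was seen for 62 genes in control cells, 60 in 7-day cells and 46 in 14-day cells. A rise of 30-fold or more was seen for 5, 5 and 7 genes. Over all 3 treatments, 47 genes rose at least 5-fold in each, 9 at least 10-fold in each and 5 at least 30-fold in each. In every treatment both day 3 libraries stood above both day 0 libraries for all 126 genes, which the rule all but requires. The ratio was at least 3 in every pairing of a day 3 with a day 0 library of the same treatment for 102 genes, and the lowest single pairing among the other 24 was 2.57.

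The strongest and most abundant of the 126 was ENSRNOG00000024899. Control cells had 4138 and 4111 CPM of it at day 3, against 7.46 and 8.59 CPM at day 0. The 7-day cells had 7179 and 6726 CPM at day 3, against 25.1 and 20.4 CPM at day 0. The 14-day cells had 5458 and 5662 CPM at day 3, against 23.1 and 23.0 CPM at day 0. It took 0.412% to 0.695% of all counts at day 3, as group means. The ratio, with 0.5 added, was 484-fold in control cells, 299-fold in 7-day cells and 236-fold in 14-day cells. Before induction both unloaded groups stood above control cells, with no overlap of libraries. The log2 difference at day 0 was 1.46 after 7 days (SE 0.092, adjusted p = 2.88e-15) and 1.56 after 14 days (SE 0.088, adjusted p = 1.31e-16), by the quasi-likelihood test of edgeR with Benjamini-Hochberg adjustment over 13215 genes, the test used for every adjusted p below. Between 14 and 7 days at day 0 it was 0.10 (SE 0.075, adjusted p = 0.450).

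Next in strength, by the smallest of its 3 ratios, was ENSRNOG00000008478. Control cells had 104 and 111 CPM at day 3, against 0.960 and 1.45 CPM at day 0. The 7-day cells had 111 and 109 CPM at day 3, against 0.633 and 0.514 CPM at day 0, and the 14-day cells had 195 and 222 CPM, against 0.929 and 1.86 CPM. Control and 7-day cells had nearly the same day 3 level, and the 14-day cells had 1.93 times that of control cells, the highest day 3 ratio of the group after 14 days. The ratios of day 3 to day 0 were 63.6-fold, 103-fold and 110-fold in control, 7-day and 14-day cells. Its day 0 levels rest on 44 reads in control cells, 18 in 7-day cells and 58 in 14-day cells. The 7-day cells were lower than control cells there (log2 difference -1.10, SE 0.41, adjusted p = 0.0472), but the adjusted p lay between 0.0510 and 0.342 in 10 alternative analyses, among them those without either 7-day library, and at 0.342 without replicate 2 of control cells. The 14-day cells did not pass the test against control cells (log2 difference 0.28, SE 0.31, adjusted p = 0.636). They were higher than the 7-day cells (1.38, SE 0.38, adjusted p = 0.0132), with an adjusted p from 0.0764 to 0.406 in 4 alternative analyses, among them 0.406 without replicate 2 of the 14-day cells and 0.0790 without replicate 2 of the 7-day cells at day 0.

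The remaining 3 genes that rose at least 30-fold in every treatment were all under 3 CPM at day 0, as group means. One had 29.96 ± 1.37 CPM at day 3 in control cells, 25.8 ± 2.35 in 7-day cells and 54.5 ± 5.05 in 14-day cells, against 0.274 ± 0.0858, 0.192 ± 0.0923 and 0.248 ± 0.0873 CPM at day 0 (SD, n = 2). Another had 38.5 ± 0.721, 53.3 ± 2.33 and 60.2 ± 1.28 CPM at day 3, against 0.385 ± 0.244, 0.639 ± 0.187 and 1.26 ± 0.196 CPM at day 0 in the same order. The last had 87.99 ± 7.12, 102.6 ± 6.13 and 68.1 ± 4.32 CPM at day 3, against 0.731 ± 0.324, 2.36 ± 1.06 and 1.59 ± 0.670 CPM at day 0. Among these 3 the order of the treatments at day 3 was not shared: the highest mean lay in 14-day cells for 2 of them and in 7-day cells for the last.

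Some of the most abundant of the 126 also had high levels at day 0. The gene with the highest day 0 level in control and 7-day cells had 2360 ± 17.8 CPM at day 3 in control cells, 2128 ± 50.1 in 7-day cells and 2459 ± 13.1 in 14-day cells, against 488 ± 11.5, 464 ± 19.8 and 438 ± 31.5 CPM at day 0 (SD, n = 2). Its ratios were 4.83-fold, 4.58-fold and 5.61-fold, and none of its day 0 differences passed the test (adjusted p = 0.0668 for 7-day and 0.0816 for 14-day against control cells). Another gene had group means in the order of the length of unloading at both days. It had 2259 ± 16.5, 2779 ± 83.7 and 3643 ± 0.585 CPM at day 3 in control, 7-day and 14-day cells, against 217 ± 5.44, 286 ± 4.42 and 455 ± 6.31 CPM at day 0, ratios of 10.37-fold, 9.69-fold and 7.99-fold. At day 0 the 14-day cells stood above control cells (log2 difference 1.10, SE 0.046, adjusted p = 1.01e-20) and above 7-day cells (0.75, SE 0.045, adjusted p = 1.45e-15).

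The levels at day 3 were alike by choice, but the sizes of the rise, for which the rule set only the lower limit of 3-fold, differed. The largest of the 3 ratios of a gene exceeded the smallest by a median factor of 1.49. The factor was under 1.25 for 21 genes, above 2 for 32 and above 3 for 9, with a highest value of 7.05. The 14-day cells had the largest ratio for 64 of the 126 genes, control cells for 37 and 7-day cells for 25. The ratio was larger in 14-day than in control cells for 82 genes, and the median difference of the log2 ratios was 0.22, with a range from -1.31 to 2.82. It was larger in 7-day than in control cells for 63 genes, and the median difference was 0.00063, from -1.78 to 1.83. These ratios used total counts, with which the median log2 ratio was 2.35 in both control and 7-day cells. With the scaling factors of edgeR (TMM) it was 2.34 in control and 2.38 in 7-day cells, so a split this even depends on the scaling. A log2 ratio that was larger by more than 1 than that of control cells was found for 22 genes after 14 days and 5 after 7 days, and one that was smaller by more than 1 for 5 and 3. The 2 differences share the control libraries, and neither was tested, because the rule used these ratios.

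**Figure D3:**
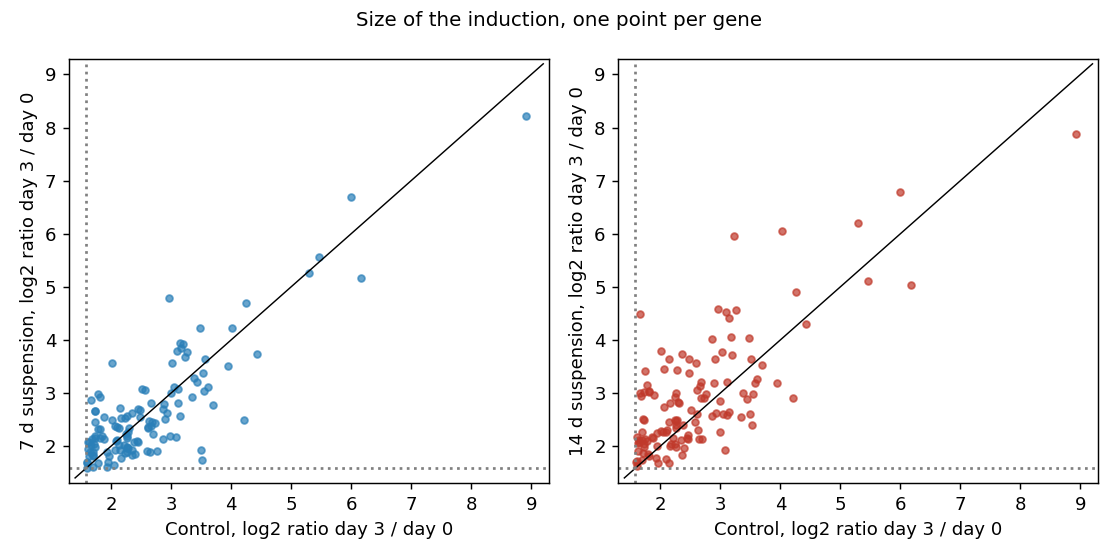
Log2 ratio of day 3 to day 0 in 7-day cells (left) and 14-day cells (right) against that in control cells, with 1 point per gene; the black line marks equal ratios and the dotted lines the 3-fold limit of the rule. With ratios on total counts, 82 of the 126 points lie above the line in the right panel and 63 in the left panel.

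Across the 126 genes the log2 ratios of control and 7-day cells had a Pearson r of 0.85 and a Spearman rho of 0.65, those of control and 14-day cells 0.76 and 0.60, and those of 7-day and 14-day cells 0.87 and 0.76. These pairs of treatments share no library, but the rule truncates every ratio at 3-fold, and genes are not independent replicates, so the values are descriptive.

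At day 3 the ratios to control lay on both sides of 1. The median was 1.06 for 7-day cells, with 80 genes above 1 and 46 below, and 1.03 for 14-day cells, with 66 above and 60 below. A ratio from 0.8 to 1.25 was found for 78 genes after 7 days and for 52 after 14 days, so the 14-day levels lay farther from those of control cells within the permitted range. The lowest ratios were 0.553 after 7 and 0.513 after 14 days, and the highest were 1.91 and 1.93. Between 14 and 7 days the day 3 ratio had a median of 0.961, from 0.540 to 2.09. All these ratios used total counts. The scaling factors of the edgeR tests (TMM) were 0.943 and 0.942 in the 14-day libraries at day 3. They were 1.021 and 1.018 in the 7-day libraries and 1.014 in both control libraries. With these factors the 14-day levels would stand higher against the others, so medians and counts this near 1 depend on the scaling.

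Of 158 genes that met the conditions on the rise and on the level in all 3 treatments, 126 (79.7%) lay within the limits on the day 3 ratios. Of the other 32, 14 were at or above the upper limit and 18 at or below the lower limit in at least one of the unloaded groups. In a single treatment, the rise and the level were met by 298 genes in control cells, 247 in 7-day cells and 281 in 14-day cells, so the 126 made up 42.3%, 51.0% and 44.8% of these. The members nearest the 3-fold limit had smallest ratios of 3.02, 3.03 and 3.03, and the nearest genes outside had 2.99, 2.97 and 2.95. For the ratios to control the nearest values inside were 0.513, 1.93 and 1.91, and those outside were 2.03, 2.11 and 0.466. For the level the nearest inside were 5.17, 5.24 and 5.82 CPM, and those outside 4.94, 4.89 and 4.88 CPM.

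Before induction, many of the 126 genes already differed between treatments, in both directions. All 126 passed the filter on low counts and were tested. The day 0 means entered the rule, so the shares of the 126 and of all genes are set side by side as a description. No test compared the 126 with other genes. At day 0, 73 of the 126 (57.9%) differed between 14-day and control cells, where 16.7% of all 13215 genes tested did. Of these, 46 (36.5%) were lower in 14-day cells, against 8.89% of all genes, and 27 (21.4%) were higher, against 7.85% of all genes. The median log2 difference was -0.89 among the 46 and 0.78 among the 27, and 20 and 9 of them differed at least 2-fold. Over all 126 it was -0.19, against -0.0020 over all genes tested.

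Between 7-day and control cells at day 0, 66 of the 126 (52.4%) differed, against 23.0% of all genes. Here lower and higher genes were about even in number: 32 (25.4%) were lower, against 11.3% of all genes, and 34 (27.0%) were higher, against 11.7%. The median log2 difference was -0.76 among those lower, 0.84 among those higher and 0.01 over all 126, with 12 of each differing at least 2-fold.

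The direct comparison of the unloading periods gave mostly lower levels after 14 days. At day 0, 40 of the 126 (31.7%) were lower in 14-day than in 7-day cells, against 6.26% of all genes, and 8 (6.35%) were higher, against 5.47%, a share near the background. The median log2 difference was -0.68 among the 40 and -0.21 over all 126, against -0.0035 over all genes. Without replicate 2 of the 14-day cells at day 0 the total of 48 fell to 30, with 24 lower and 6 higher, and in a fit of the 6 day 0 libraries alone it was 31 of 122, again with 24 lower.

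The 126 genes were more abundant than genes in general: their median level over all libraries was 38.5 CPM, against 20.8 CPM for all genes tested. Among the 9382 genes with at least 5 CPM at day 3 in every treatment, 19.3% differed at day 0 between 14-day and control cells, 26.2% between 7-day and control cells and 12.7% between 14-day and 7-day cells. In these abundant genes the lower and higher shares were 9.85% and 9.42% for 14-day against control cells, 13.7% and 12.5% for 7-day against control cells, and 5.88% and 6.86% for 14-day against 7-day cells. Day 0 differences were also found among the 32 genes that rose in all treatments but lay outside the day 3 limits. Of these 32, 13 were lower and 8 higher in 14-day than in control cells. In 7-day against control cells 10 were lower and 8 higher, and in 14-day against 7-day cells 12 and 2. Day 0 differences were thus not particular to the 126. The part of abundance in the counts was not tested further. Of the 63 more abundant of the 126, 27 were lower and 16 higher in 14-day than in control cells at day 0, and of the 63 less abundant, 19 and 11. A low day 0 level in a treatment also raises the ratio by which the rule chose genes.

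**Figure D4:**
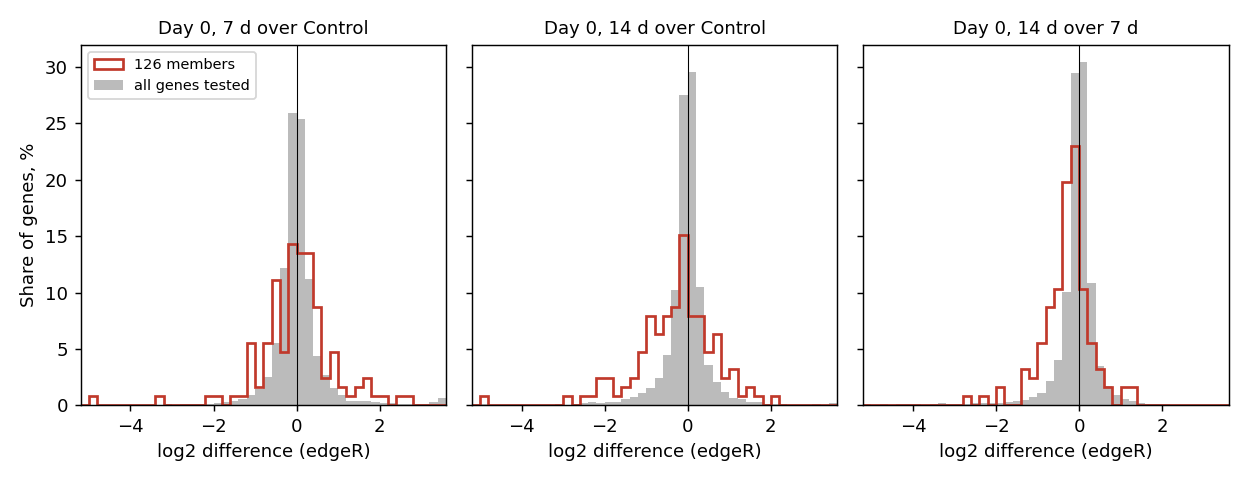
Distribution of log2 differences at day 0 from edgeR, as a share of genes in percent, for the 126 genes (red line) and for all 13215 genes tested (grey); values of other genes past the ends of an axis are drawn in its end bins. Relative to all genes, the red line is wide in the first and middle panels. The median of the 126 is 0.01 in the first panel, -0.19 in the middle panel and -0.21 in the last.

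Genes that were lower at day 0 after unloading mostly had larger ratios of day 3 to day 0 than in control cells, 45 of 46 in 14-day cells and 29 of 32 in 7-day cells. The day 0 level is part of the ratio, and the rule held day 3 levels within 2-fold of control, so this is a description. The 46 genes lower in 14-day cells at day 0 had a median ratio of day 3 to day 0 of 8.03-fold in 14-day cells, against 4.40-fold in control cells. At day 3 their level in 14-day cells was a median of 0.883 times that of control cells, and 16 of the 46 were above 1. The 27 genes that were higher at day 0 rose a median of 5.27-fold in 14-day cells, against 6.25-fold in control cells, and their median day 3 ratio was 1.37, with 19 of 27 above 1. In 7-day cells the 32 genes lower at day 0 rose 5.997-fold, against 3.76-fold in control cells, and the 34 higher rose 4.48-fold, against 7.39-fold. Their median day 3 ratios to control were 0.868 and 1.246.

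The largest fall at day 0 in 14-day cells, among genes with at least 10 reads in each group compared, was that of ENSRNOG00000016945. At day 3 the 14-day cells had 35.95 and 38.4 CPM of it, the 7-day cells 20.8 and 20.3 CPM and the control cells 26.7 and 31.4 CPM. At day 0 the 14-day cells had 1.34 and 1.02 CPM, the 7-day cells 3.17 and 1.61 CPM and the control cells 10.1 and 7.53 CPM. The order at day 0, with control cells highest, was thus not that of day 3, where 14-day cells were highest. The log2 difference from control cells at day 0 was -2.86 after 14 days (SE 0.24, adjusted p = 3.86e-12) and -1.93 after 7 days (SE 0.22, adjusted p = 9.42e-09). The gene was picked for the 14-day difference, so the size and adjusted p of that difference are descriptive. Its rise was 22.4-fold in 14-day cells, 7.29-fold in 7-day cells and 3.18-fold in control cells, the widest range of ratios in the group. The 14-day cells were also lower than the 7-day cells at day 0 (log2 difference -0.94, SE 0.31, adjusted p = 0.0410), with an adjusted p from 0.0502 to 0.676 in 6 alternative analyses and 0.676 without replicate 1 of the 7-day cells.

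The largest fall at day 0 in 7-day cells, by the same limit on reads, was that of ENSRNOG00000007335. At day 3 the 7-day cells had 98.4 and 84.3 CPM, the 14-day cells 73.9 and 72.8 CPM and the control cells 93.1 and 87.6 CPM. At day 0 the 7-day cells had 3.04 and 2.57 CPM, the 14-day cells 2.43 and 2.6996 CPM and the control cells 10.0 and 12.2 CPM. Both unloaded groups lay below control cells at day 0, while at day 3 the 7-day and control libraries overlapped. The log2 difference at day 0 was -2.03 after 7 days (SE 0.17, adjusted p = 5.73e-12) and -2.07 after 14 days (SE 0.16, adjusted p = 8.18e-13). Between 14 and 7 days it was -0.04 (SE 0.22, adjusted p = 0.939). The gene was picked for the 7-day difference, so the size and adjusted p of that difference are descriptive. The gene rose 27.8-fold in 7-day cells, 24.1-fold in 14-day cells and 7.82-fold in control cells.

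**Figure D5:**
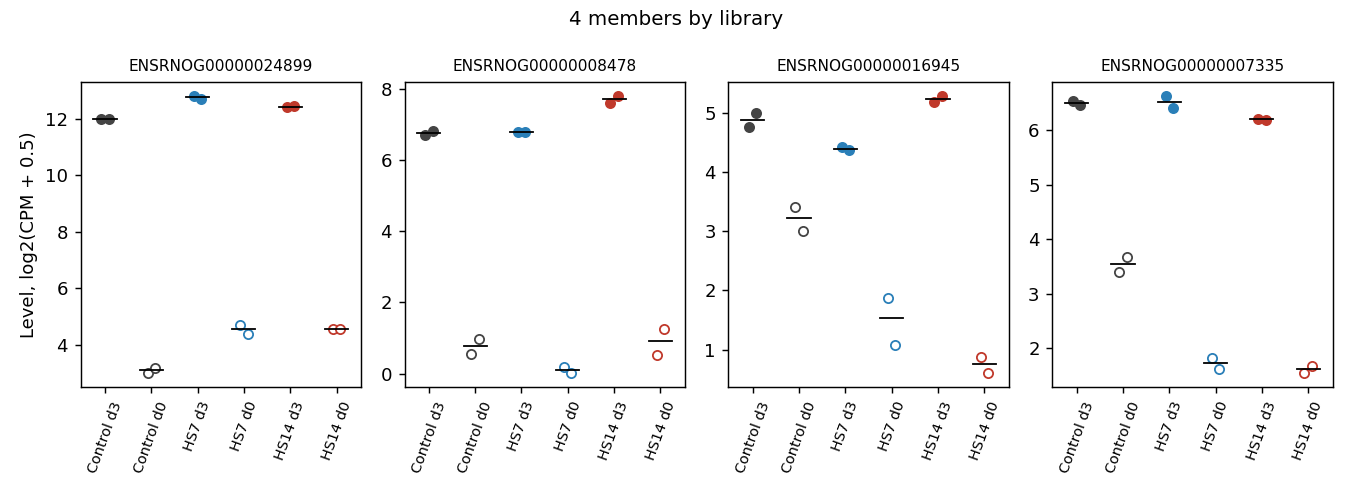
Levels of 4 genes in each library, as log2(CPM + 0.5), with day 3 as filled and day 0 as open points, control cells in grey, 7-day cells in blue and 14-day cells in red, and a bar at the log2 of the mean CPM plus 0.5; the panels have separate scales. In the 2 right panels the open points of the unloaded cells lie below those of control cells, and the filled points of all treatments lie closer together.

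Other genes also had their lowest day 0 level in 14-day cells. One gene of more than 1000 CPM at day 3 in 14-day and control cells had 1238 ± 1.38 CPM in 14-day cells at day 3, 891 ± 30.4 in 7-day cells and 1335 ± 38.0 in control cells, against 18.2 ± 0.127, 47.2 ± 1.21 and 81.8 ± 0.664 CPM at day 0 (SD, n = 2). At day 0 it was lower in 14-day than in control cells (log2 difference -2.14, SE 0.065, adjusted p = 1.38e-24) and lower in 14-day than in 7-day cells (-1.29, SE 0.069, adjusted p = 3.95e-17). It rose 66.4-fold in 14-day cells and 16.2-fold in control cells. Another had 0.966 ± 0.345 CPM at day 0 in 14-day cells, 6.84 ± 2.42 in 7-day cells and 4.76 ± 0.426 in control cells, and 90.6 ± 4.39, 93.4 ± 0.868 and 48.8 ± 1.47 CPM at day 3 in that order. Its difference between 14-day and 7-day cells was the largest fall of the group at day 0 (log2 difference -2.71, SE 0.25, adjusted p = 1.12e-10). A difference singled out as the largest is descriptive.

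The opposite shape, a higher start and a smaller rise after unloading, was also present. The gene with the largest day 0 excess in 7-day cells had 2.72 and 3.47 CPM in 7-day cells, against 0.533 and 0.335 CPM in control cells (log2 difference 2.76, SE 0.36, adjusted p = 1.55e-07), and 0.671 and 0.465 CPM in 14-day cells. The 14-day and control libraries overlapped at day 0, so this gene had the higher start after 7 days only. At day 3 it had 11.4 ± 1.24 CPM in 7-day cells and 10.2 ± 0.492 CPM in control cells (SD, n = 2). The gene with the largest excess in 14-day cells had 3.30 and 2.75 CPM there at day 0, 3.55 and 4.89 CPM in 7-day cells and 0.853 and 0.669 CPM in control cells. Its log2 difference from control was 2.01 after 14 days (SE 0.31, adjusted p = 4.72e-06) and 2.41 after 7 days (SE 0.31, adjusted p = 9.82e-08). Each gene of this paragraph was singled out as the largest excess, so the difference that singled it out is descriptive.

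For a few genes the day 0 level was at the limit of the depth. Libraries held 15105521 to 21484885 counts. Fewer than 10 reads over both libraries of a group were found at day 0 for 2 of the 126 genes in control cells, 5 in 7-day cells and 4 in 14-day cells. One gene had 0 reads at day 0 in both 7-day and both 14-day libraries, which allows up to 0.0957 and 0.0734 CPM if 3 counts over the group are taken as the limit, and 8 reads in control cells. At day 3 it had 304 reads in 7-day cells and 300 in 14-day cells, levels 92.0 and 105 times those limits. These limits cover counting error only and take each count as an independent read. Low counts were more often even than odd, so the true limits may be higher and the factors smaller.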

How the data were processed

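The authors deposited raw counts per Ensembl gene for 12 libraries, made with a strand-specific mRNA kit per the labels. Per the submitters' processing notes, the tools were STAR 2.7, featureCounts 1.6.4, FastQC 0.11.9 and DESeq2, with build Rnor_6.0. The sources used here do not say what each did or whether counting used strand, so overlapping or near-identical genes are uncertain. Even values made up 68.3% to 70.6% of gene counts between 1 and 20, by library, so halved counts were tried as well.

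The genes were chosen with earlier results of these data known, as were the comparisons. CPM for levels and ratios used total counts. Day 0 tests used edgeR 4.0.16 in R 4.3.3: filterByExpr (13215 genes kept), TMM factors (0.942 to 1.045), estimateDisp, then glmQLFit and glmQLFTest in 1 fit of 6 group means with 6 residual degrees of freedom. Tests were two-sided, with a Benjamini-Hochberg FDR of 0.05 over all genes tested. The SE of a log2 difference is its size divided by the square root of the F statistic. The test was checked on simulated counts. These were drawn with the same spread for every gene, so the check does not give the error rate of the test in these data. Replicate counts differed by more than the sampling of independent counts allows (chi-square per degree of freedom 2.69 to 7.36), so each group counts 2 libraries. Counts that are not independent, as the excess of even values may reflect, would raise this figure, and their part was not tested. DESeq2 1.42.0, other scalings and filters, a replicate block and fits without each library in turn were alternatives.

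The rule for naming genes was to take the 12 with the largest smallest ratio, the 8 most abundant, members of 18 gene lists, and the 4 largest rises and 4 largest falls of each day 0 contrast. No identifier could be paired with a symbol, so the lists were not used and 4 identifiers are printed: the 2 with the largest smallest ratio and the largest called day 0 falls after 14 and 7 days. The minimum of 10 reads for these falls, and the other genes described without an identifier, were chosen after their values were seen.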

Additional observations from a re-analysis of the deposited data

How the results depend on the processing

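The count of genes that differed at day 0 stayed within 1.5 times its value in most alternatives. For 14 against 7 days, 48 became 31 in the fit of the 6 day 0 libraries alone, where fewer samples set the spread, and 30 to 49 when 1 library was left out. Leaving out 1 library gave 59 to 74 for 14 days against control (73 with all) and 56 to 65 for 7 days against control (66 with all). With a replicate block these counts were 47, 72 and 65. The labels give no pairing beyond the number, and deviations of same-numbered libraries correlated at -0.0508 to 0.0411 over pairs of groups. DESeq2 gave 44, 69 and 65, and halved counts 38, 63 and 61. The number of genes that met the rule was 263 at a 2-fold and 71 at a 4-fold limit, and 123 to 129 without 1 library. Alternatives chosen after the data were seen gave 130 with the 5 CPM minimum read on the mean plus 0.5, and 129 and 122 with replicates 1 or 2 alone, where 109 of the 126 passed in both. The median log2 ratio of day 3 to day 0 (2.35 in control, 2.62 in 14-day cells) was 2.43 and 2.699 with a pseudocount of 0.1, 2.26 and 2.57 with a pseudocount of 1, and in 14-day cells 2.67 on TMM-scaled libraries; the cause was not tested. Of the day 0 differences of the 4 named genes, 216 alternative values kept their direction and side of the threshold, 20 lost the call and 4 changed sign, all 4 without 1 day 0 library and for differences that did not pass the test. Without 1 library, ENSRNOG00000024899 (14 against 7 days) ranged from -0.028 (without 7-day replicate 2) to 0.25, ENSRNOG00000008478 (14 days against control) from -0.32 (without 14-day replicate 2) to 0.67, and ENSRNOG00000007335 (14 against 7 days) from -0.15 to 0.078 (without 7-day replicate 1, and 0.023 without 14-day replicate 1). Depth limits the day 0 values of genes with few reads. The planned tests of non-member list genes were not run, because no identifier could be paired with a symbol.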
